A study of Danio rerio with 30 samples.

Results

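grna.1 (older symbol grn1) is 1 of the granulin genes of the zebrafish. It was measured by a single probe set, the 1 probe set whose only symbol in the array annotation is grna.1. Of the 75212 probe sets, 20806 carry 1 symbol each and name 19260 genes, and 53551 carry no symbol. The gene was selected on its measured level in these samples, which was high at 1 day post injury (dpi) relative to intact, so its differences from the intact brain are given as a description, without a test. Whole telencephala of wild-type zebrafish, labelled as 3 to 5 months old, were profiled on Affymetrix Zebrafish Gene 1.0 ST arrays. The injured groups had a skull injury, in which a fine blade reached the middle of the telencephalon from above, through the bone, or a nostril injury, in which a glass capillary entered through the nostril, and both injuries were made in both hemispheres. Telencephala were taken at 1, 2, 3 and 7 dpi, with 3 replicates per group and 4 for skull injury at 3 dpi, and were compared with the intact telencephalon of uninjured fish (n = 4). The question behind the design was how the response to a skull injury departs from that to a nostril injury, which the study used as a model of recovery. The labels do not say whether replicates came from separate fish or pools, and the p-values therefore cover only variation among the arrays at hand, which may be technical.

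Granulins are small cysteine-rich peptides. They are cut from a secreted precursor, progranulin, which in mammals is made by neurons, microglia and macrophages, is taken up by the receptor sortilin or together with prosaposin, and reaches the lysosome, where cathepsins cleave it. In mammals, loss of progranulin disturbs lysosomes and microglia, and the protein also acts as a growth factor in wounds. Zebrafish have several genes of this family: grna and grnb, whose precursors are of the long type known from mammals, and the short forms grna.1 and grna.2, which lie next to each other on chromosome 19.

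The arrays were of even quality apart from 1 group. Array medians lay between 4.22 and 4.35 on the log2 scale, and any pair of replicates correlated between 0.962 and 0.988 over all probe sets. The skull 3 dpi replicates stood apart, with correlations among themselves of 0.963 to 0.974 against at least 0.979 within each other group. The 8 telencephalic transcription factor genes of the marker list that the array measures were all well expressed, and the lowest linear intensity of any of them in any replicate was 66.9 (emx2).

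grna.1 was at its highest 1 day after either injury and came down over the following days. On the log2 intensity scale, where 1 unit is a doubling, the intact replicates had 6.08, 6.17, 4.87 and 6.49, the first being the mean of 2 technical arrays that differed by 0.096. At 1 dpi, the skull-injured telencephala had 9.46, 9.19 and 8.55 and the nostril-injured ones 8.95, 9.29 and 8.38. Every replicate at 1 dpi was therefore above every intact replicate, and skull and nostril replicates overlapped. At 2 dpi the values were 8.65, 7.60 and 7.78 after skull injury and 8.38, 7.46 and 7.75 after nostril injury. At 3 dpi they were 7.84, 8.97, 7.67 and 7.77 after skull injury and 7.39, 7.60 and 7.28 after nostril injury. All of these replicates still exceeded the highest intact replicate, and at 3 dpi the skull and nostril replicates did not overlap. At 7 dpi the skull-injured telencephala had 6.96, 6.76 and 6.46 and the nostril-injured ones 5.38, 6.73 and 5.97. By then 2 of 3 skull replicates and 1 of 3 nostril replicates were above the highest intact one.

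**Figure D1:**
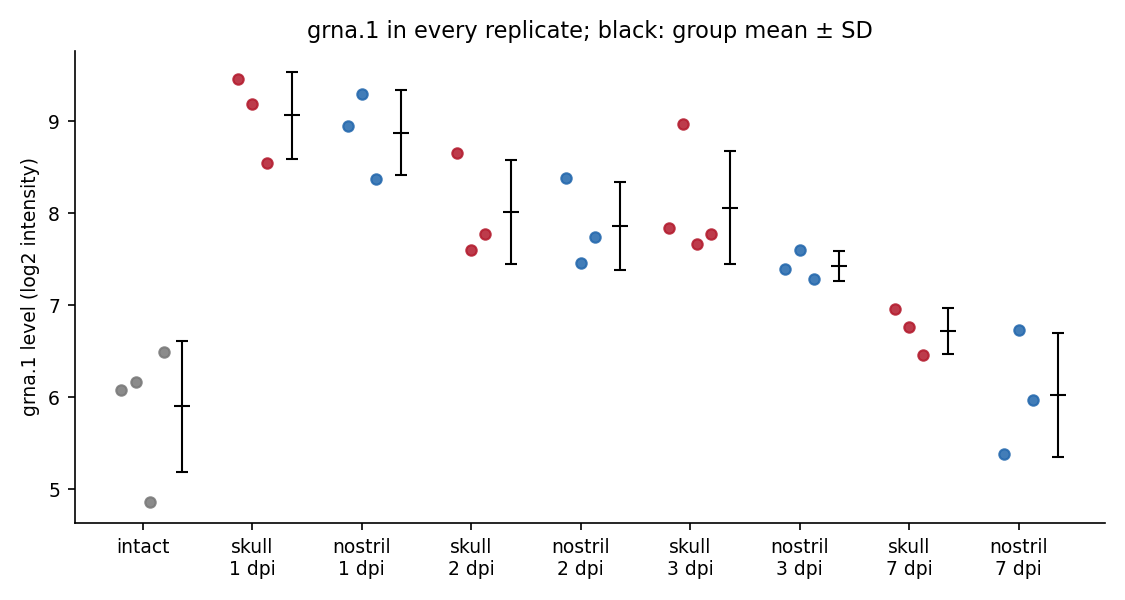
Level of grna.1 (log2 intensity, vertical axis) in each replicate of the 9 groups, with the intact brain at the left and, at each day, skull injury (red) left of nostril injury (blue). Black bars give the mean ± SD of a group. The 6 replicates at 1 dpi lie between 8.38 and 9.46, and the intact ones between 4.87 and 6.49.

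Relative to intact, the mean difference in log2 intensity after skull injury was 3.16 at 1 dpi, 2.11 at 2 dpi, 2.16 at 3 dpi and 0.82 at 7 dpi. These are linear folds of 8.96, 4.32, 4.48 and 1.77. After nostril injury, the corresponding differences were 2.97, 1.96, 1.52 and 0.13, or folds of 7.85, 3.89, 2.88 and 1.09. The standard error was 0.38 for each of these differences except 0.35 for skull injury at 3 dpi. Among the 40670 probe sets bright enough to be tested, ordered from the most to the least increased, grna.1 stood at place 14, 16, 34 and 296 in the 4 skull comparisons and at place 18, 26, 37 and 12275 in the 4 nostril comparisons.

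Ordered by their means, the groups ran from skull 1 dpi (9.06 ± 0.47, SD) and nostril 1 dpi (8.87 ± 0.46) through skull 3 dpi (8.06 ± 0.61), skull 2 dpi (8.01 ± 0.56), nostril 2 dpi (7.86 ± 0.47) and nostril 3 dpi (7.43 ± 0.16) to skull 7 dpi (6.73 ± 0.25), nostril 7 dpi (6.03 ± 0.68) and intact (5.90 ± 0.71). Within this order the replicates of each neighbouring pair overlapped, with the exception of nostril 3 dpi and skull 7 dpi, so most steps between neighbours were no larger than the spread between replicates. The lowest intact replicate weighs on the baseline, and without it the intact mean is 6.25 ± 0.22 (n = 3) and the nostril 7 dpi difference -0.22.

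Between the injuries, no difference in grna.1 passed the test at any time point. The difference in log2 intensity of skull minus nostril was 0.19 at 1 dpi (95% interval -0.65 to 1.03, limma adjusted p = 0.978). That comparison rests on the 1 dpi values for which the gene was chosen, which limits its test. It was 0.15 at 2 dpi (-0.69 to 0.99, limma adjusted p = 1). The means stood 0.64 apart at 3 dpi (-0.15 to 1.42, limma adjusted p = 0.344) and 0.70 apart at 7 dpi (-0.14 to 1.54, limma adjusted p = 1), with skull injury the higher one. All 4 intervals span 0 and reach up to 0.99 or beyond, so they show neither a difference nor equal levels. The percentage of tested probe sets called in either direction was 0.0344% at 1 dpi, 0% at 2 dpi, 3.59% at 3 dpi and 0% at 7 dpi. At 3 dpi the size of the difference leans on skull replicate 2. Without it the skull mean is 7.76 ± 0.086 (n = 3) and the difference is 0.34, still with no overlap.

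**Figure D2:**
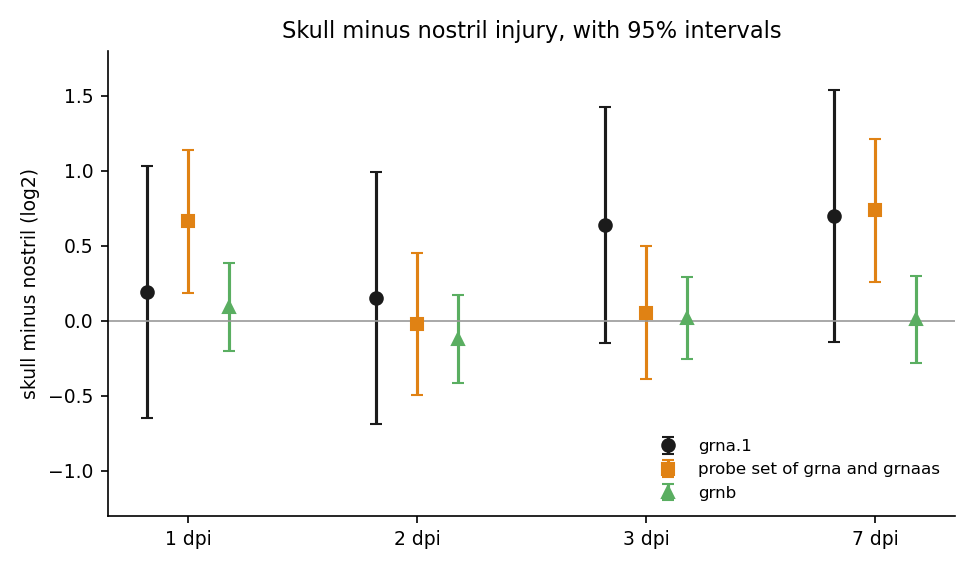
Difference in log2 intensity between skull and nostril injury (vertical axis) at each day post injury for the 3 granulin probe sets bright enough to be tested. Bars are 95% intervals of the limma fit. Each interval of grna.1 spans 0, as does each of grnb, whereas those of the probe set of grna and grnaas at 1 and 7 dpi do not, although neither passes adjustment over all probe sets.

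Later in the course, grna.1 fell between 3 and 7 dpi after skull injury. The difference of 7 minus 3 dpi was -1.34 ± 0.38 (SE, limma adjusted p = 0.0262), with no overlap between the groups. This comparison called 11.5% of all tested probe sets, with 3.19% lower at 7 dpi. The call was lost without skull 3 dpi replicate 2 (difference -1.03, limma adjusted p = 0.0585), skull 7 dpi replicate 2 (-1.36, limma adjusted p = 0.071) or skull 7 dpi replicate 3 (limma adjusted p = 0.102), and when the fit held the 2 groups alone (limma adjusted p = 0.161). After nostril injury the difference was of much the same size, -1.40 ± 0.41, again with no overlap, but it did not pass (limma adjusted p = 0.109, in a comparison that called 0.75% of probe sets, 0.438% as lower). The change from 3 to 7 dpi did not differ detectably between the injuries (skull minus nostril 0.06 ± 0.56, SE, limma adjusted p = 0.978).

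From 2 to 3 dpi neither injury gave a call. The difference of 3 minus 2 dpi was 0.05 ± 0.38 after skull injury (limma adjusted p = 0.955) and -0.44 ± 0.41 after nostril injury (limma adjusted p = 0.945), and these 2 changes differed by 0.49 ± 0.56 (limma adjusted p = 0.793). These comparisons called 4.65% and 0% of probe sets for skull and nostril injury. The step of 2 minus 1 dpi, which rests on the time point for which the gene was chosen, measured -1.05 after skull injury and -1.01 after nostril injury, and in both cases the replicates overlapped.

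The other granulin genes can be tested against intact. The probe set annotated jointly to grna and its antisense RNA gene grnaas, whose RNAs it cannot tell apart, rose at 1, 2 and 3 dpi after both injuries. At 1 dpi it had 6.64, 6.15 and 6.24 after skull injury, 5.70, 5.78 and 5.57 after nostril injury, and 4.55, 4.39, 4.59 and 5.11 in intact telencephala. All injured replicates were above the intact ones, and the skull replicates above the nostril ones (difference 0.66 ± 0.23, limma adjusted p = 0.576). The difference from intact after skull injury was 1.68 ± 0.22 at 1 dpi (limma adjusted p = 0.00018), 1.64 ± 0.22 at 2 dpi (limma adjusted p = 0.00082) and 1.32 ± 0.20 at 3 dpi (limma adjusted p = 0.00053). After nostril injury it was 1.02 ± 0.22 (limma adjusted p = 0.0184), 1.67 ± 0.22 (limma adjusted p = 0.00058) and 1.26 ± 0.22 (limma adjusted p = 0.0139) at these times. All 6 comparisons were thus called.

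Leaving out single replicates ended some of the nostril calls of this probe set. The call at 1 dpi ended when nostril replicate 1 or 2 or intact replicate 1, 2 or 3 was dropped (limma adjusted p up to 0.105), and that at 3 dpi when nostril replicate 1 or 3 or intact replicate 2 was dropped (up to 0.0914). With the compared groups fitted alone, the limma adjusted p was 0.0592, 0.0977 and 0.131 at 1, 2 and 3 dpi after nostril injury.

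After nostril injury this probe set had 6.91, 6.04 and 6.04 at 2 dpi, so its mean was 0.65 higher than at 1 dpi, with no overlap between the 2 days. At 7 dpi it had 5.53, 5.74 and 5.37 after skull injury, 0.88 ± 0.22 above intact (limma adjusted p = 0.0524, not called, though 0.0239 to 0.0445 in 6 of 11 other settings), and 4.86, 4.99 and 4.58 after nostril injury, 0.15 ± 0.22 above intact (limma adjusted p = 0.796). The skull replicates lay above both the nostril replicates of that day (difference 0.74 ± 0.23, limma adjusted p = 1) and the intact ones. The decline from 3 to 7 dpi was called after nostril injury (-1.11 ± 0.23, limma adjusted p = 0.0205) and not after skull injury (-0.43 ± 0.22, limma adjusted p = 0.194). Whether these 2 declines differ was not tested. That nostril call was lost on leaving out nostril 3 dpi replicate 1 or any of the 3 nostril 7 dpi replicates, with a limma adjusted p of up to 0.154.

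**Figure D3:**
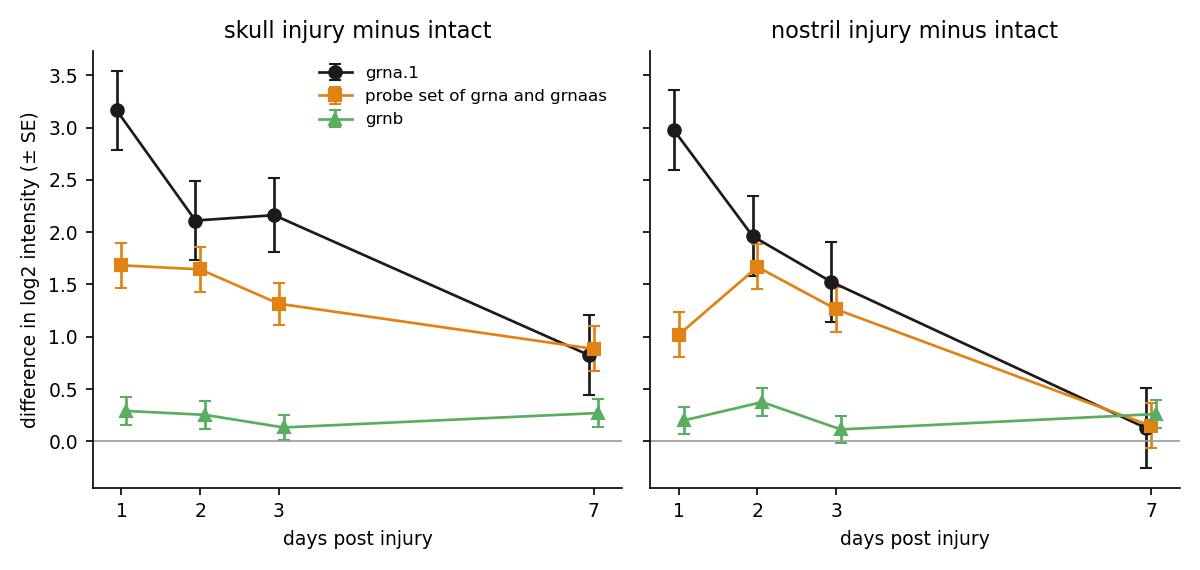
Difference in log2 intensity from intact (vertical axis, ± SE) against days post injury, after skull injury in the left panel and nostril injury in the right one. Lines join the 4 time points of grna.1, the probe set of grna and grnaas, and grnb. At 1 dpi grna.1 is at 3.16 and 2.97, and grnb at 0.29 and 0.20.

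grnb changed little. It averaged between 6.27 and 6.53 in the injured groups and 6.16 ± 0.16 in intact telencephala. Its differences from intact ran from 0.11 to 0.38, and none of the 8 passed the test, although the 95% interval lay above 0 at 1 dpi after skull injury (0.02 to 0.56) and at 2 dpi after nostril injury (0.10 to 0.65). The differences between the injuries were 0.09 or less in size apart from -0.12 at 2 dpi. Both remaining probe sets, that of grna.2 and 1 shared by grna.1, grna.2 and the antisense RNA gene grnas, were too dim to be tested. Their group means on the linear scale peaked at 13.7 and 16.3, under the limit of 20, so nothing can be said of a response of grna.2. The shared probe set was 0.42 above intact at 1 dpi after skull injury and 0.37 after nostril injury, with overlapping replicates. It thus did not show the rise of the grna.1 probe set, and its dimness limits that comparison.

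Among genes of progranulin handling and of the lysosome, most calls fell on the list of proteases. The lists examined were receptors and binding partners, proteases taken as candidates for cleaving progranulin or its peptides, and other lysosomal genes, with 62 genes in all. Whether each of these proteases cleaves progranulin was not examined. From these same arrays, the paper already names mouse homologues of several of them among genes regulated by both injuries at 1 dpi. They are Scpep1, Ctsk, Lgmn, Ctsa, Ctsc, Ctss, Mmp9 and Mmp14. The lists were chosen with earlier results of these data known, so the protease counts describe the list and are no independent support. The array names a probe set for 50 of them, and 45 were bright enough to be tested. At 1, 2, 3 and 7 dpi, 7, 4, 7 and 0 of the 45 rose after skull injury, beside 0.541%, 0.283%, 3.1% and 0.519% of all tested probe sets. After nostril injury, 7, 6, 1 and 2 rose, beside 0.765%, 0.457%, 0.0787% and 1.21%. None of the 45 fell relative to intact, where 0.0713%, 0.0197%, 4.83% and 0.189% of all probe sets did after skull injury and 0.0713%, 0.0713%, 0.00738% and 0.538% after nostril injury. At an unadjusted limma p under 0.05, 21, 20, 14 and 5 were higher and 0, 2, 5 and 1 lower after skull injury, and 17, 21, 16 and 4 were higher and 0, 2, 0 and 1 lower after nostril injury. Over all probe sets the share higher at that p was 6.62%, 5.07%, 9.39% and 8.64% after skull injury and 5.59%, 7.46%, 3.66% and 8.94% after nostril injury, so the 7 dpi counts of 5 and 4 of 45 lie near the background. The share lower was 3.93%, 3.99%, 16.2% and 6.3% after skull injury and 4.6%, 5.1%, 3.41% and 7.39% after nostril injury.

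Single replicates carried many of these calls. For skull injury, without 1 replicate the counts ranged from 3 to 8 at 1 dpi, 0 to 4 at 2 dpi and 5 to 9 at 3 dpi, and for nostril injury from 1 to 10, 1 to 7, 0 to 1 and 0 to 2 at 1, 2, 3 and 7 dpi. The skull counts dropped by more than 1.5 times without skull 1 dpi replicate 1 (3) or 2 (4), and at 2 dpi without skull replicate 1 (0), 2 (2) or 3 (1) or intact replicate 2 (2) or 3 (2). The nostril counts did so at 1 dpi without nostril replicate 1 (2) or 2 (1) or intact replicate 1 (2), 2 (1) or 3 (4), and at 2 dpi without nostril replicate 1 (1) or intact replicate 2 (3) or 3 (3). The single call at 3 dpi was lost without nostril replicate 1 or 3 or intact replicate 1 or 2, and the calls at 7 dpi without nostril replicate 1 or 2 or any of the 4 intact replicates. When the outlying skull 3 dpi group was left out of the fit, 12, 10 and 2 rose at 1, 2 and 3 dpi after nostril injury. When only the compared groups were fitted, 2 rose at 3 dpi after skull injury and 2, 0, 0 and 0 at 1, 2, 3 and 7 dpi after nostril injury.

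Of the 13 proteases tested, 6 rose at 1 dpi after skull injury, with a median difference from intact over the list of 0.91. They were ctss2.1 (2.02 ± 0.27), a cathepsin S gene, ctsc (1.46 ± 0.29), whose product activates serine proteases of leukocytes, lgmn (1.07 ± 0.17), the lysosomal asparagine endopeptidase, scpep1 (1.03 ± 0.19), ctsba (0.94 ± 0.14), a cathepsin B gene, and ctsa (0.77 ± 0.17). At 1 dpi after nostril injury 6 rose as well, with a median of 0.73 over the list. ctss2.1 (1.99 ± 0.27), lgmn (0.82 ± 0.17) and ctsba (0.64 ± 0.14) were joined there by mmp9 (1.48 ± 0.35), which encodes a secreted gelatinase, mmp14b (1.12 ± 0.23), encoding a membrane-bound metalloproteinase, and ctsla (0.56 ± 0.13), a cathepsin L gene. In intact telencephala mmp9 and ctss2.1 were below a linear mean of 20. Both entered the test only through a brighter injured group, which favours a rise over intact, and both are counted among the called genes.

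The collagen-degrading cathepsin gene ctsk rose later. It was 1.52 ± 0.26 above intact at 2 dpi and 1.49 ± 0.24 at 3 dpi after skull injury, and 1.79 ± 0.26 and 1.50 ± 0.26 after nostril injury at these times, the last being the only call of the 45 genes at 3 dpi after nostril injury. scpep1 rose at 2 and 3 dpi after skull injury (1.05 and 1.02) and at 2 dpi after nostril injury (1.08). mmp9 was 1.85 ± 0.32 above intact at 3 dpi after skull injury and 1.59 ± 0.35 at 2 dpi after nostril injury. From 3 to 7 dpi, ctsk fell after both injuries (-0.86 ± 0.26 after skull and -1.50 ± 0.27 after nostril injury) and mmp9 fell after skull injury (-1.40 ± 0.35). These were 2 of the 13 proteases tested after skull injury and 1 of 13 after nostril injury. Over all tested probe sets, 3.19% and 0.438% were called lower. Whether these falls hold under other settings was not examined. No protease of the list passed the test of skull minus nostril at any day. At an unadjusted limma p under 0.05, 1 of 13 was lower after skull injury at 1 dpi, 0 differed at 2 dpi, 1 was lower at 3 dpi and 1 higher at 7 dpi. Of all 40670 tested probe sets, 2670, 957, 8644 and 1175 were under that p in either direction on these days.

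Few receptor genes were called. Of 10 tested, tnfrsf1a, encoding a tumour necrosis factor receptor to which progranulin has been reported to bind in mammals, rose at 1 dpi after nostril injury (1.15 ± 0.23, limma adjusted p = 0.0134), and sort1b, a sortilin gene, rose at 7 dpi after nostril injury (0.46 ± 0.12, limma adjusted p = 0.0497). The count of 1 receptor gene at 1 dpi became 0 without nostril replicate 2 or 3 or intact replicate 2, and that at 7 dpi without nostril replicate 1 or 2 or any intact replicate and under 4 of the other settings. The list had median differences from intact between -0.20 and 0.09. At 3 dpi after skull injury, 4 of the 10 were lower and 1 higher at an unadjusted limma p under 0.05. Over all tested probe sets the shares were 16.2% lower and 9.39% higher. In the other comparisons with intact, at most 2 receptor genes were under that p in either direction.

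Of 22 other lysosomal genes tested, cd68, the gene of a lysosomal membrane protein abundant in macrophages, rose at 1 dpi (1.62 ± 0.30) and 3 dpi (1.28 ± 0.28) after skull injury. gusb and asah1b, which encode lysosomal hydrolases, rose at 3 dpi after skull injury (0.41 and 0.69), glb1, a beta-galactosidase gene, at 2 dpi after nostril injury (0.47), and galca, a galactosylceramidase gene, at 7 dpi after nostril injury (0.71). None of these calls held in every setting. With only the compared groups fitted, 0 of the lysosomal genes were called in each of these 4 comparisons. The count of 1 at 1 dpi after skull injury became 0 without skull replicate 1 or 2. The count of 1 at 2 dpi after nostril injury became 0 with the replicate block, with eBayes trend, with no filter, with a linear mean above 50, and without nostril replicate 1 or 3 or intact replicate 2 or 3. The count of 1 at 7 dpi after nostril injury became 0 with the first technical array, with no filter, and without nostril replicate 1 or 2 or any intact replicate. The list's median difference from intact lay between 0.05 and 0.24. At 3 dpi arsa, encoding arylsulfatase A, differed between the injuries, with less after skull injury (difference -0.56 ± 0.13, limma adjusted p = 0.0273). That comparison, which holds the outlying skull 3 dpi group, called 3.59% of all tested probe sets, so 1 of 22 lies near the background. Whether the call holds under other settings was not examined.

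Markers of microglia and macrophages also rose after both injuries. As a list they differed from grna.1 in the step from 1 to 2 dpi. That difference rests on the 1 dpi values for which grna.1 was chosen. After nostril injury the list's median was highest at 2 dpi, and grna.1 at 1 dpi. Averaged over the 20 markers, the nostril replicates had 7.61, 6.66 and 6.92 in log2 intensity at 2 dpi and 6.78, 7.03 and 6.61 at 1 dpi. The days thus overlapped, and at 2 dpi only replicate 1 exceeded every 1 dpi replicate. After skull injury the median stayed between 1.12 and 1.23 from 1 to 3 dpi, while grna.1 was lower at 2 and 3 dpi than at 1 dpi. At 2, 3 and 7 dpi the median was 1.12, 1.22 and 0.38 after skull injury, beside 2.11, 2.16 and 0.82 for grna.1. After nostril injury it was 1.16, 0.79 and 0.05 at these times, beside 1.96, 1.52 and 0.13 for grna.1. The part of these cells in the level of grna.1 was not tested. The RNA came from whole telencephala, where more cells of a type and more RNA per cell cannot be told apart. Of 22 markers 20 are named on the array and 19 were tested. Of these, 11, 9, 15 and 0 rose at 1, 2, 3 and 7 dpi after skull injury and 5, 11, 1 and 0 after nostril injury, beside 0.541%, 0.283%, 3.1% and 0.519% of all tested probe sets for skull and 0.765%, 0.457%, 0.0787% and 1.21% for nostril injury. At 7 dpi 0 markers were higher at an unadjusted limma p under 0.05 as well. The list's median difference from intact was 1.23, 1.12, 1.22 and 0.38 after skull injury and 0.75, 1.16, 0.79 and 0.05 after nostril injury, and single members reached 2.28. Summed over the 20 markers, linear intensity ran from 7612 to 9064 at 1 dpi after skull injury, from 6636 to 8552 at 1 dpi after nostril injury and from 3925 to 5713 in intact telencephala. At 2 dpi the sums were 8015 to 9248.5 after skull injury and 6341 to 10274 after nostril injury. At 7 dpi they were 4489 to 5418 after skull injury and 3958 to 4439 after nostril injury. Over the 29 replicates, the Pearson correlation of the 19 tested markers with grna.1 ran from 0.127 (mpeg1.2) to 0.918 (coro1a). Next after coro1a were mfap4.1 (0.894), slc7a7 (0.874), itgb2 (0.835), havcr1 (0.830), lcp1 (0.819), laptm5 (0.812), c1qb (0.788) and mpeg1.1 (0.785). csf1ra (0.764), irf8 (0.759), spi1b (0.755), cybb (0.725), apoeb (0.661) and c1qa (0.659) followed. The lowest beside mpeg1.2 were p2ry12 (0.549), ccl34b.1 (0.447) and csf1rb (0.307). Of the list, p2ry12 and ptprc had an intact linear mean under 20. p2ry12 entered the test only through a brighter injured group, which favours a rise over intact. Between 3 and 7 dpi after skull injury, the comparison in which grna.1 fell, 10 of the 19 markers fell, with a median of -0.84. This comparison called 3.19% of all tested probe sets as lower.

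Skull 3 dpi replicate 2, which had the highest grna.1 value of its group, also had the highest summed intensity of microglia and macrophage markers, 10489, against 7129 to 8551 in the other 3 replicates of the group. Its sums were also the group's highest for neutrophil, red blood cell and ependymoglia markers and for the receptor, protease and other lysosomal lists. They were not for skin and surface epithelium, olfactory neurons and telencephalon.

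**Figure D4:**
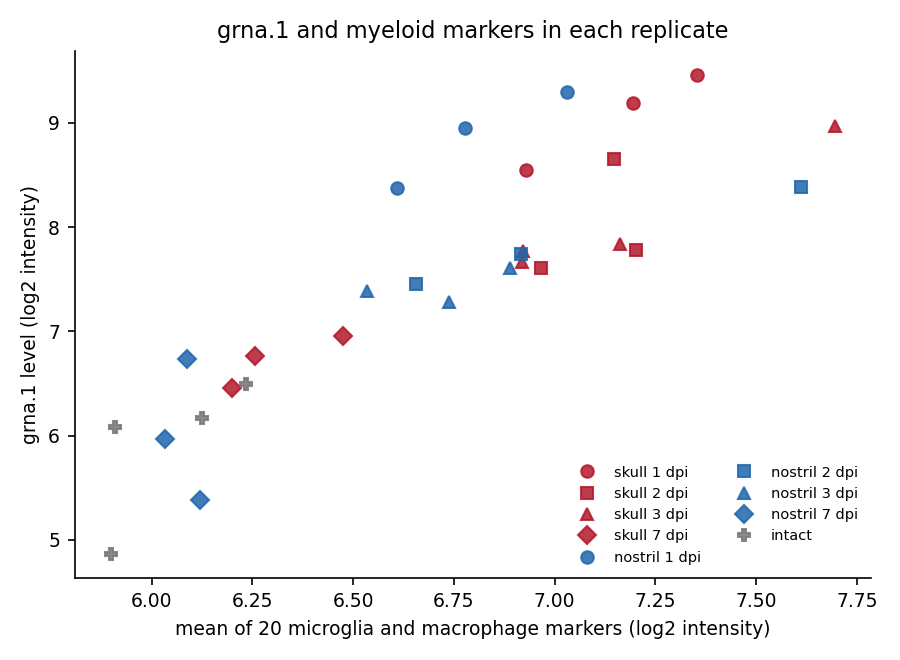
Level of grna.1 (vertical axis) against the mean of 20 microglia and macrophage markers (horizontal axis), both in log2 intensity, with 1 point for each of 29 replicates. Symbols give the day and colours the injury. Intact replicates (plus signs) have marker means of 5.90 to 6.24, and skull 3 dpi replicate 2 is the point farthest to the right (7.69). The 1 dpi values (circles) are those on which the gene was selected.

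Markers of other cell types that the sample could hold also moved in some comparisons. Of 7 neutrophil markers tested, 3 rose at 1 dpi and 2 at 3 dpi after skull injury, and 2 at 1 dpi after nostril injury, beside 0.541%, 3.1% and 0.765% of all tested probe sets. Among the tested markers, mpx, the neutrophil peroxidase gene, and adam8a had an intact linear mean under 20 and entered the test only through a brighter injured group. Over the 29 replicates, the Pearson correlation of the neutrophil markers with grna.1 was 0.851 for adam8a, 0.826 for csf3r and 0.687 for srgn. For ncf1, mpx, lyz and cebp1 it was 0.498, 0.320, 0.034 and -0.192. The summed neutrophil intensity ranged from 379 to 579 at 1 dpi after skull injury, from 484 to 561 at 1 dpi after nostril injury and from 389 to 722 in intact telencephala, where replicate 4 alone was above 394. The mean log2 intensity of these markers was 4.63 to 5.38 at 1 dpi after skull injury, 5.07 to 5.23 at 1 dpi after nostril injury and 4.55 to 4.95 in intact telencephala, so the nostril replicates lay above all intact ones. Of 6 red blood cell markers, 3 rose at 1 dpi after skull injury (sum 338 to 719, against 138 to 465 in intact telencephala), beside 0.541% of all tested probe sets. Among the 6, klf1, slc4a1a and gata1a had an intact linear mean under 20. They entered the test only through a brighter injured group, which favours a rise over intact. No marker of skin and surface epithelium (9 tested) or olfactory neurons (1 tested) passed the limma test relative to intact, and at an unadjusted p under 0.05 at most 1 did in either direction of a comparison. Of 6 ependymoglia markers, glula, gja1b and cyp19a1b fell at 3 dpi after skull injury (list median -0.44, beside 4.83% of probe sets called lower). These and fabp7a were lower after skull than nostril injury on that day (median -0.47, beside 3.59% of probe sets called in either direction). From 3 to 7 dpi after skull injury, the comparison in which grna.1 fell, 3 ependymoglia markers rose and 1, s100b, fell. That comparison called 11.5% of probe sets in either direction and 3.19% as lower. After nostril injury gfap rose at 1 dpi (beside 0.765% of probe sets called higher) and s100b fell at 7 dpi (beside 0.538% called lower) relative to intact. Correlations of the ependymoglia markers with grna.1 ran from -0.350 (cyp19a1b) to 0.723 (gfap). The part of any of these cells in the level of grna.1 was not tested.

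The genes whose level followed grna.1 most closely were ranked by Pearson correlation over the 29 replicates, across 14371 named genes, as a description, since the replicates share groups and the genes share arrays. The 10 highest were coro1a (r = 0.918), gja13.2 (0.906), c1ql1 (0.904), psme1 (0.900), zgc:64051 (0.900), ctsba (0.896), thfp5 (0.895), mfap4.1 (0.894), rac2 (0.894) and anxa2a (0.885). coro1a encodes an actin-binding protein of leukocytes, rac2 a GTPase of blood cells, gja13.2 a connexin, psme1 a subunit of a proteasome activator, anxa2a an annexin, and mfap4.1 belongs to a cluster of similar genes whose RNAs may share probes. coro1a and mfap4.1 are also in the microglia and macrophage list, and ctsba is in the protease list. After the group means were removed, the correlation of these 10 genes with grna.1 was between 0.50 and 0.77. The genes were ranked on the same replicates, deviations from group means included, so their selection favours that range. These replicates include the intact and 1 dpi ones on which grna.1 was selected. grnb had r = 0.346.

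Among these genes, psme1 was 1.81 above intact at 1 dpi after skull injury and 1.41 after nostril injury. ctsba, the flattest, was 0.94 and 0.64 above. thfp5 had differences of 3.15 (skull) and 4.05 (nostril) at 1 dpi. At 7 dpi, the mean of 8 of the 10 was above intact after skull injury and that of 3 of the 10 after nostril injury. These counts use the sign alone, and some differences were smaller than their SE. Examples are ctsba after skull injury (0.06 ± 0.14) and rac2 (0.04 ± 0.28) and ctsba (-0.007 ± 0.14) after nostril injury. The lowest correlations belonged to draxina (-0.712), hmgn6 (-0.686) and si:ch211-153f2.3 (-0.681). Ranked by Spearman correlation instead, 8 of the 10 remained among the first 10. Ranked over the 9 group means, 1 remained among the first 10 and 9 among the first 50.

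**Figure D5:**
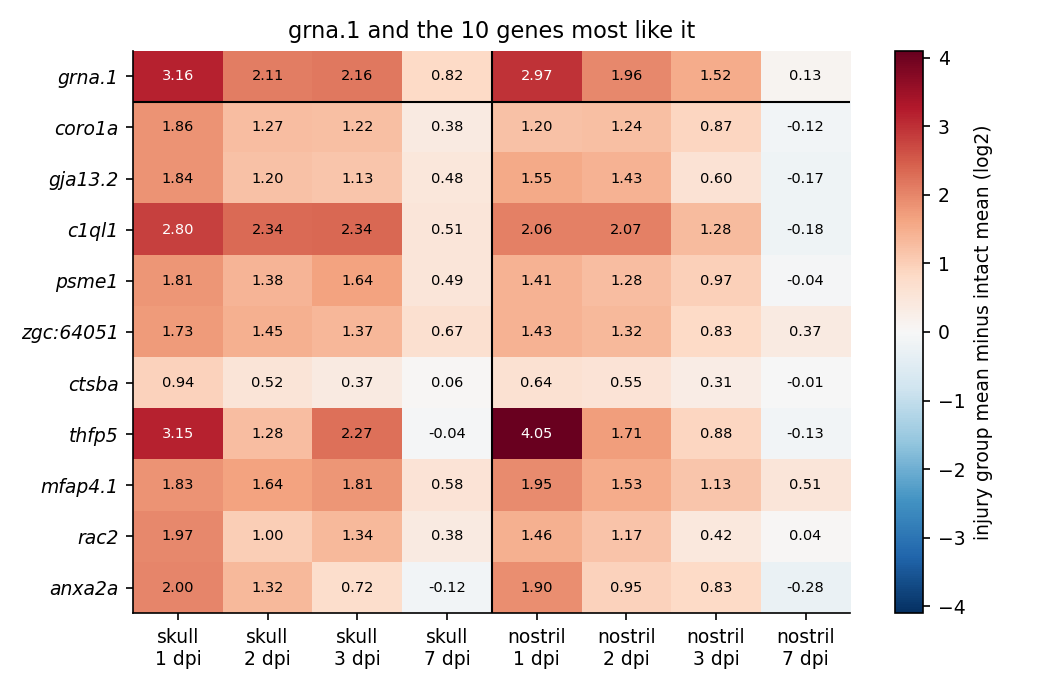
Difference of each injury group from intact (log2, colour scale and printed values) for grna.1, in the top row, and the 10 genes most correlated with it over 29 replicates. Skull injury is on the left and nostril injury on the right, each from 1 to 7 dpi. After either injury grna.1 is highest at 1 dpi (3.16 and 2.97), and thfp5 reaches 4.05.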

How the data were processed

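RNA of whole telencephala was amplified and hybridised to 30 arrays. The deposited values are log2 intensities, which the authors made by RMA (Affymetrix Expression Console 1.3) with sketch-quantile normalization and median polish. Arrays have no depth, and with 3 or 4 replicates per group their number limits the precision. The array annotation follows an older genome build (Zv9) than the gene table used for names, so no positions are given, and no probe or gene sequence was used here.

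The 2 arrays of intact replicate 1 entered as their mean, leaving 29 replicates in 9 groups. limma 3.58.1 (R 4.3.3, lmFit and eBayes) was fitted with all groups sharing 1 spread (20 residual and 3.51 prior degrees of freedom), and Benjamini-Hochberg adjustment ran over the 40670 of 75212 probe sets whose linear mean exceeded 20 in at least 1 group. Called means an adjusted p under 0.05. The linear mean is the antilog of the mean log2 value. For genes with several probe sets, the brightest was used. The shares over all tested probe sets include probe sets without a symbol, so that background is not matched to the listed genes. Genes were named as the members of fixed lists that were called, the granulin probe sets, and the 10 genes with the highest and 3 with the lowest correlation to grna.1. The gene, the lists and the tests were chosen with earlier results of these data known. The fit was tested on simulated data. Alternatives were the scaling, the filter, the groups fitted, array weights, trend, the technical arrays, a replicate block and leaving out each replicate. Figures were drawn with matplotlib 3.10.9.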

Additional observations from a re-analysis of the deposited data

Results flagged for a closer look

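The level of grna.1 in skull 3 dpi replicate 2 stood far from the other 3 replicates of its group, at 8.97 on the log2 scale against 7.84 for the nearest. The gap took up 0.868 of the group's whole range, over Dixon's 95% limit for 4 samples, a limit that chance passes in about 1 in 20 groups. The same replicate had the highest mean of the microglia and macrophage markers in its group, 7.69 against 6.92 to 7.16 in log2 intensity. Its means were also the group's highest for neutrophil, red blood cell and ependymoglia markers and for the receptor, protease and other lysosomal lists.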

How the results depend on the processing

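The differences of grna.1 from intact kept their direction in all 144 values of the alternatives except 2, both at 7 dpi after nostril injury (without intact replicate 3 or nostril 7 dpi replicate 2, range over single replicates -0.22 to 0.45). Its fall from 3 to 7 dpi after skull injury missed the threshold when only the 2 groups were fitted (-1.34, limma adjusted p = 0.161) and with array weights (-1.36, limma adjusted p = 0.0705), and ranged from -1.47 to -1.03 without single replicates. Skull minus nostril differences changed sign without single replicates at 1 dpi (-0.058 to 0.45) and 2 dpi (-0.17 to 0.41), as did 3 minus 2 dpi after skull injury (-0.25 to 0.37). For the probe set of grna and grnaas the sign of skull minus nostril turned at 2 dpi (-0.17 to 0.27) and 3 dpi (-0.068 to 0.20), and for grnb at 3 dpi (-0.061 to 0.13) and 7 dpi (-0.10 to 0.089). For grnb it also turned with quantile normalization (-0.0022 at 7 dpi), array weights (-0.028 at 7 dpi) and median centring (-0.0080 at 3 dpi).

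Of the 45 genes of progranulin handling and the lysosome, fitting only the compared groups called 2 at 3 dpi after skull injury and 2, 0, 0 and 0 at 1, 2, 3 and 7 dpi after nostril injury. Leaving skull 3 dpi out of the fit called 12, 10 and 2 at 1, 2 and 3 dpi after nostril injury, and median centring 11, 10 and 2. Array weights called 11 and 9 at 1 and 2 dpi after skull injury and 12, 11 and 2 at 1, 2 and 3 dpi after nostril injury. With no filter 3 were called at 2 dpi and 0 at 7 dpi after nostril injury, with the first technical array 0 at 7 dpi, and with quantile normalization 1 at 7 dpi. Without single replicates the counts at 1, 2, 3 and 7 dpi ranged over 3 to 8, 0 to 4, 5 to 9 and 0 to 0 after skull injury and 1 to 10, 1 to 7, 0 to 1 and 0 to 2 after nostril injury. The cause of these shifts was not tested.

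The replicate numbers did not pair the samples. Deviations from the group means correlated with a median of -0.0022 between same-numbered samples, over 0.1 in 1 of 12 skull and nostril pairs, and 7 of 29 samples correlated best with their own number. With the replicate number as a block, the fall of grna.1 from 3 to 7 dpi after skull injury was -1.29 (limma adjusted p = 0.0238), the probe set of grna and grnaas gained a call at 7 dpi after skull injury (0.92, limma adjusted p = 0.0445), the difference of grnb between injuries at 3 dpi was -0.0051, and the counts for the 45 genes were 7, 4, 9 and 0 after skull injury and 6, 6, 1 and 2 after nostril injury. Within these, the lysosomal count at 2 dpi after nostril injury became 0 with the block. No second probe set carries the symbol grna.1 alone, so that alternative gave no value. Dim probe sets, such as that of grna.2, limit what can be measured.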
